A study of Drosophila melanogaster with 20 samples.

Results

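The DOX response that depended on the fly line was described as an interaction: the change with DOX (doxycycline) in the MnSOD line at day 73 minus the change with DOX in control flies. It used 16 of the 20 arrays of the series, 4 in each of 4 groups, chosen by the sample labels alone, and it was computed for all 14010 probe sets of the Affymetrix DrosGenome1 array. The groups were MnSOD line +DOX and MnSOD line -DOX, the adult male progeny of MnSOD(2)22 crossed to rtTA(3)E2, and control +DOX and control -DOX, the adult male progeny of Oregon R wild type crossed to the same rtTA(3)E2. Each sample was RNA of 30 males, and the labels call the 4 replicates of a group biological without saying that they came from separate cultures, so that the p-values speak of the scatter among these samples alone, which may be technical. The labels put all 4 groups at day 73, whereas the design text of the series gives day 78 for both control groups. The ages of the lines are therefore equal by the labels and 5 days apart by the design text. All groups carry the rtTA driver, the food of both arms held the antibiotic ampicillin, the MnSOD line is a single insertion, and the control cross has another genetic background and no insertion, so that the transgene and the background of the line cannot be told apart.

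In this system the rtTA protein, which the study describes as expressed in all tissues, binds DOX and then switches on genes placed behind its target promoter. In the MnSOD line that gene is Sod2, which encodes manganese superoxide dismutase, the enzyme that turns superoxide into hydrogen peroxide in the mitochondrial matrix. In control flies DOX has no transgene to switch on, and it is also an antibiotic that can act on bacteria in the gut and on mitochondrial protein synthesis. The control change was subtracted to take out what DOX does without the transgene. Immune genes were higher with DOX in control flies by the sample labels, whereas the study's text describes them as lower with DOX, and the same disagreement holds for Sod2, so that the direction of the control change is not settled by the sources used here. Every interaction is therefore given with the control term as labelled, which subtracts the control change, and with the control term turned, which adds it and equals an exchange of the control +DOX and control -DOX labels.

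Values are RMA values on the log2 scale, and a change is a difference of group means on that scale. The call rule was a limma adjusted p below 0.01 together with a change of 1.2-fold or more. Over all 20 arrays the medians lay between 5.49 and 5.68 and the correlations between arrays between 0.957 and 0.997. The control +DOX arrays stood apart in their technical probe sets: the mean of 9 bacterial spike-in probe sets was 8.41, 7.98, 8.09 and 9.69 on control +DOX replicates 1 to 4, against 9.61 to 10.24 on control -DOX arrays and 9.45 to 9.99 on the 8 MnSOD arrays of day 73. The 18S rRNA probe sets averaged 8.84 and 5.44 on control +DOX replicates 1 and 3, against 3.37 to 3.94 on the remaining control arrays. The signal at the 3′ end of the control transcripts exceeded that at the 5′ end by 1.05 to 1.88 on control +DOX arrays and by 1.96 to 3.35 on control -DOX arrays. On the 8 MnSOD arrays of day 73 this excess was 1.4 to 1.8, so that by this measure the control -DOX arrays stood apart, replicate 1 (3.35) the most. The array weights of limma, which are low for an array unlike the rest of its group, were 0.7346, 1.145, 2.53 and 0.2511 on control +DOX replicates 1 to 4. On control -DOX replicate 1 the weight was 0.2497. The part of these differences in the results that rest on control flies was not tested.

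Over all 16 arrays the change with DOX was wider in control flies than in the MnSOD line. The SD of the change over all probe sets was 0.16 in the MnSOD line and 0.335 in control flies, and the median absolute change was 0.0662 in the MnSOD line and 0.198 in control flies, with a median standard error of 0.0892 for either. In the MnSOD line 28 probe sets rose (0.2%) and 65 fell (0.464%), 0.664% of those tested together, and in control flies 1692 were higher (12.1%) and 1980 lower (14.1%) as labelled, 26.2% together. The 4 +DOX and 4 -DOX arrays did not overlap for 12.9% of probe sets in the MnSOD line and for 27.1% in control flies. The median within-group SD was 0.085 in MnSOD +DOX, 0.0789 in MnSOD -DOX, 0.123 in control +DOX and 0.133 in control -DOX arrays, and the fit gives each probe set a single spread for all groups. With only the 8 arrays of each term in its fit, the calls were 347 in the MnSOD line and 1330 in control flies. With the spike-in signal in the fit the calls were 121 in the MnSOD line and 101 in control flies. That signal was low mainly on control +DOX arrays, so the fit estimates the control change less precisely and these counts do not compare the lines. The same holds with control +DOX replicates 1 to 3 left out, where a single array stands for control +DOX.

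With the control term as labelled, 311 probe sets rose (2.22%) and 530 fell (3.78%) in the interaction. With the control term turned, 656 rose (4.68%) and 642 fell (4.58%). Centring each array on its median moved these counts to 199 and 740 as labelled and to 999 and 493 turned. Each called probe set was then put in a class by the sizes of its 2 terms. It was MnSOD-carried where the change in the MnSOD line was at least 2 times that in control flies, control-carried where the control change was at least 2 times that in the MnSOD line, and mixed otherwise. These classes restate the terms that make up the interaction and carry no test.

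As labelled, 25 of the 841 called probe sets were MnSOD-carried (2.97%), 565 were control-carried (67.2%) and 251 were mixed. With the control term turned, 21 of 1298 were MnSOD-carried (1.62%), 1075 were control-carried (82.8%) and 202 were mixed. In this fit most calls thus had a control change at least 2 times as large as that in the MnSOD line, with either sign. As labelled, that was not so with the spike-in signal in the fit or in the fit without control +DOX replicates 1 to 3. Turned, these fits left few calls to class. Both fits estimate the control change less precisely, so that their counts do not compare the lines. With the spike-in signal in the fit, 95 rose and 180 fell as labelled, of which 13 were MnSOD-carried and 108 control-carried, and turned 1 rose, Sod2, and 0 fell. With control +DOX replicates 1 to 3 left out, 37 rose and 104 fell as labelled, of which 7 were MnSOD-carried and 46 control-carried, and turned 3 rose and 0 fell. By the calls of the single terms, only the MnSOD term was itself called for 17 probe sets as labelled and 11 turned, and only the control term for 693 as labelled and 1163 turned. A ratio of 3 in place of 2 left 16 MnSOD-carried and 443 control-carried as labelled, and 14 and 867 turned.

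**Figure D1:**
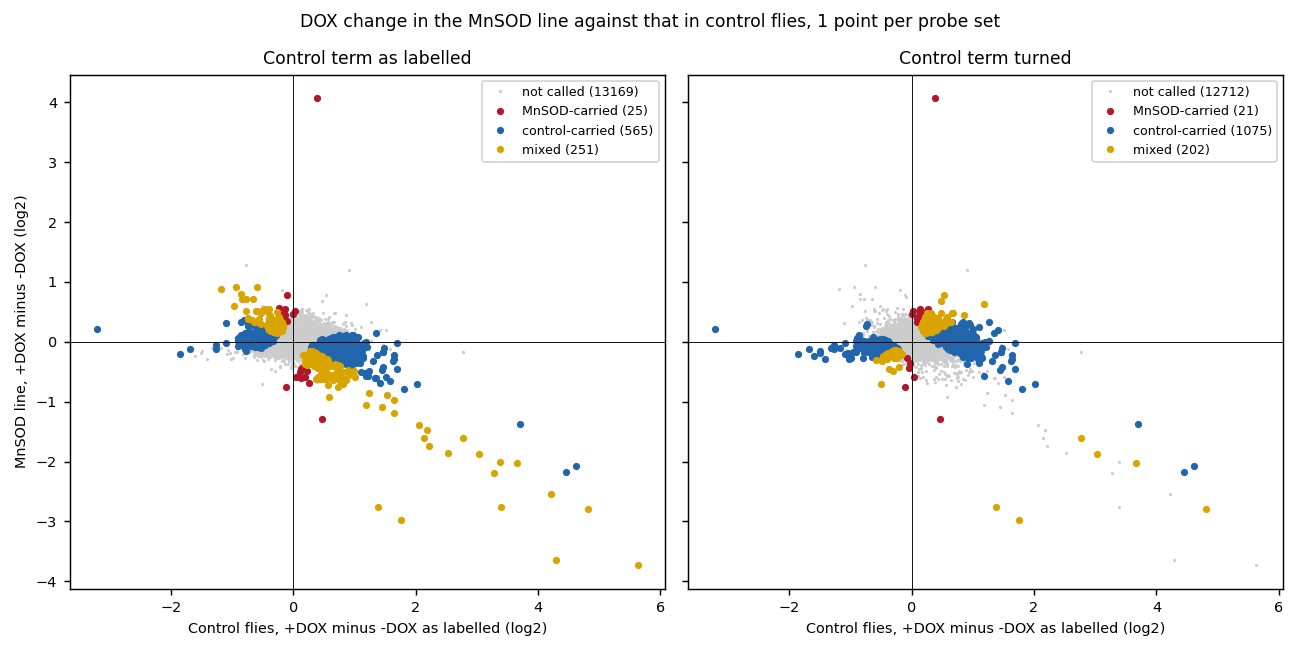
Change with DOX in the MnSOD line (vertical axis, log2) against the change with DOX in control flies as labelled (horizontal axis, log2), 1 point per probe set, with the control term as labelled on the left and turned on the right. Called probe sets are coloured by class, and the cloud is wider along the control axis, where the changes have an SD of 0.335, than along the MnSOD axis, where they have an SD of 0.16.

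**Figure D2:**
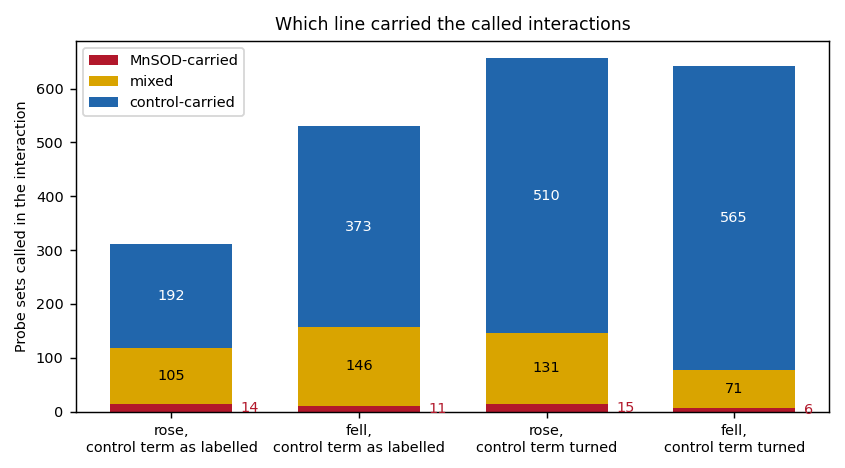
Number of probe sets called in the interaction (vertical axis) by direction and by the sign of the control term, stacked by the class that says which line carried the difference. MnSOD-carried probe sets make up 14, 11, 15 and 6 of the 4 bars.

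Subtracting the control change favours opposite changes in the lines, and adding it favours changes of the same sign. The terms pushed the interaction the same way for 87.0% of 841 calls as labelled and for 86.2% of 1298 turned. The counts that follow are of the probe sets called in the MnSOD line, whatever their class. Of the 93 probe sets called in the MnSOD line, 81 had a control change of the opposite sign as labelled. The share of all probe sets with opposite signs was not counted. Among these 93, 53 were lower with DOX in the MnSOD line and called higher with DOX in control flies, and 13 were higher in the MnSOD line and called lower in control flies. Over all probe sets 12.1% were called higher and 14.1% lower in control flies. Only 2 were called higher and 1 called lower in both lines. As labelled, 84 of the 93 were also called in the interaction in the direction of the MnSOD line. With the control term turned, 17 of the 93 were called in that direction and 10 in the other. Across all 14010 probe sets, which are not independent replicates, the changes of the lines had a Pearson correlation of -0.175.

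Sod2, the induced gene, had RMA values of 12.57, 12.36, 12.61 and 12.42 in the MnSOD +DOX arrays, against 8.42, 8.36, 8.47 and 8.42 in the MnSOD -DOX arrays. It had 8.14, 7.98, 8.07 and 7.59 in the control +DOX arrays and 7.66, 7.38, 7.56 and 7.67 in the control -DOX arrays. The MnSOD groups did not overlap, the control groups did, and the lowest MnSOD -DOX array lay above the highest control array. Without DOX the MnSOD line was 0.85 higher than control flies, and with DOX it was 4.55 higher. The interaction was 3.69 (standard error 0.133, adjusted p = 7.41e-15, a 12.9-fold difference of ratios) as labelled and 4.45 (standard error 0.133, adjusted p = 1.19e-16) turned. It was called with either sign under all 11 other fits and without each of the 16 arrays. The control change of 0.38 was itself called (adjusted p = 0.00312), and without control +DOX replicates 1 to 3 together it was 0.03, with interactions of 4.05 as labelled and 4.10 turned.

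Besides Sod2, 7 probe sets of 6 genes were called in the same direction with either sign, so that 8 of the 14010 probe sets (0.0571%) passed the call rule both ways. Direction alone is kept with either sign wherever the MnSOD term is the larger. That held for 91 of the 841 calls as labelled and for 79 of the 1298 turned. An exact permutation test of each, two-sided, moved the DOX labels within each line. It tests for no DOX change in either line, and the smallest p it can give is 0.000408. Terms that offset each other give a larger p, which are terms of the same sign as labelled and terms of opposite sign turned. The genes that fell were CG13947, CG11854, CG34166 and Elo68alpha, and those that rose with Sod2 were Ldh and Cyp6d5. With the spike-in signal added to the fit, Sod2 alone of the 8 kept both calls. The turned interactions were then -0.89 for Elo68alpha, -0.94 for CG11854, -1.22 and -0.92 for the CG13947 probe sets, -0.56 for CG34166 and 0.38 for Ldh. With control +DOX replicates 1 to 3 left out they were -0.82, -0.91, -1.4 and -1.03, -0.69 and 0.45. Cyp6d5 kept both calls in neither fit, and its values there are not given. The control change is less precise in both fits, so a lost call there is not by itself a smaller change.

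Elo68alpha encodes a male-specific fatty acid elongase. It had 5.55, 5.54, 5.76 and 5.44 in MnSOD +DOX arrays, against 6.37, 6.31, 6.41 and 6.23 in MnSOD -DOX arrays. Control +DOX arrays had 6.29, 6.32, 6.44 and 6.42, against 6.53, 6.38, 6.46 and 6.56 in control -DOX arrays. The MnSOD +DOX arrays thus stood alone below the other 3 groups, which lay between 6.23 and 6.56. The change was -0.76 in the MnSOD line and -0.12 (adjusted p = 0.248) in control flies. The interaction was -0.64 (standard error 0.115, adjusted p = 0.000648, permutation p = 0.029) as labelled and -0.87 (standard error 0.115, adjusted p = 0.000234, permutation p = 0.00163) turned, and both calls were kept without each of the 16 arrays. At day 83 the MnSOD +DOX arrays, which are set against the same MnSOD -DOX arrays, lay 0.28 lower than these.

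CG11854, which the study also names as a candidate aging biomarker from these arrays, had 4.94, 5.28, 5.17 and 5.42 in MnSOD +DOX arrays, against 6.61, 6.48, 6.31 and 6.56 in MnSOD -DOX arrays. It had 7.67, 7.29, 7.55 and 7.38 in control +DOX arrays and 7.16, 6.82, 6.85 and 7.19 in control -DOX arrays. The groups of each line did not overlap, and both control groups lay above both MnSOD groups. The interaction was -1.76 (standard error 0.16, adjusted p = 5.8e-08, permutation p = 0.000408) as labelled. Turned, it was -0.82 (standard error 0.16, adjusted p = 0.00248), while the permutation test gave p = 0.14, the terms then being opposed. The change in the MnSOD line was -1.29, and that at day 83 was -0.98. The control change of 0.47 lost its call without control -DOX replicate 2 or 3 or control +DOX replicate 1 or 3, each left out alone (adjusted p up to 0.0149).

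CG13947 has 2 probe sets here, whose names end in _i_at and _r_at and mark probes that may also bind other transcripts, so that its values are uncertain as those of a single gene. The _r_at probe set had 8.55, 8.86, 8.72 and 8.83 in MnSOD +DOX arrays, against 11.42, 11.12, 11.41 and 12.05 in MnSOD -DOX arrays. It had 10.51, 10.14, 10.02 and 10.2 in control +DOX arrays, against 8.58, 9.44, 8.71 and 8.61 in control -DOX arrays. Low and high thus changed places between the lines as labelled: the DOX arrays were the low ones in the MnSOD line and the high ones in control flies. The interaction was -4.14 (standard error 0.263, adjusted p = 1.1e-10) as labelled and -1.38 (standard error 0.263, adjusted p = 0.00227, permutation p = 0.266) turned. The _i_at probe set gave -4.73 and -1.22, and its turned call (adjusted p = 0.00904) was kept only without control -DOX replicate 4 or control +DOX replicate 4 among the 16 arrays left out singly, with adjusted p up to 0.0246. Its change was -2.97 in the MnSOD line and 1.75 in control flies, so that the MnSOD term was the larger one.

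CG34166 had 11.29, 11.34, 11.42 and 11.32 in MnSOD +DOX arrays, against 11.93, 11.93, 11.86 and 12.02 in MnSOD -DOX arrays. It had 12.37, 12.42, 12.26 and 12.17 in control +DOX arrays, which overlapped the 12.2, 12.35, 12.32 and 12.18 in control -DOX arrays. Only the MnSOD line separated by DOX. The interaction was -0.63 (standard error 0.127, adjusted p = 0.00209) as labelled and -0.55 (standard error 0.127, adjusted p = 0.00562) turned. The turned call was kept only without control -DOX replicate 1 or 4, control +DOX replicate 2 or 4, MnSOD -DOX replicate 3 or MnSOD +DOX replicate 3 (adjusted p up to 0.0149). At day 83 the MnSOD +DOX arrays lay 0.16 below the MnSOD -DOX arrays.

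Ldh, the gene of lactate dehydrogenase, which turns pyruvate into lactate, was named from the study's additional data and not from the annotation. It had 7.6, 7.58, 7.7 and 7.81 in MnSOD +DOX arrays, against 7.16, 7.14, 7.22 and 7.11 in MnSOD -DOX arrays. The control arrays lay between them, except that control +DOX replicate 2 reached into the MnSOD +DOX range, at 7.35, 7.59, 7.37 and 7.31 with DOX and at 7.4, 7.33, 7.36 and 7.43 without. Without DOX the MnSOD line was thus 0.22 below control flies, and with DOX it was 0.26 above them. The interaction was 0.48 (standard error 0.118, adjusted p = 0.00828) as labelled and 0.54 (standard error 0.118, adjusted p = 0.0041) turned, and the labelled call was kept only without control +DOX replicate 2 or 4 among the 16 single omissions (adjusted p up to 0.0222). The turned call was lost without MnSOD +DOX replicate 4 (adjusted p = 0.0111).

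Cyp6d5, a cytochrome P450 gene, had 10.46, 10.45, 10.38 and 10.41 in MnSOD +DOX arrays, against 9.91, 10.11, 9.85 and 9.99 in MnSOD -DOX arrays. Control +DOX arrays had 10.4, 10.48, 10.46 and 10.43, and control -DOX arrays had 10.27, 10.54, 10.39 and 10.58. The MnSOD -DOX arrays were the ones that stood apart, 0.48 below the control -DOX arrays, while the MnSOD +DOX arrays lay 0.02 below the control +DOX arrays. The interaction was 0.46 with either sign (standard error 0.112, adjusted p = 0.00774 as labelled and 0.00691 turned). The call as labelled was kept only without control -DOX replicate 1, control +DOX replicate 4 or MnSOD -DOX replicate 2, with adjusted p up to 0.0221. The turned call was kept only without control -DOX replicate 2 or 4, control +DOX replicate 4, MnSOD -DOX replicate 2 or MnSOD +DOX replicate 3 (adjusted p up to 0.0175).

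**Figure D3:**
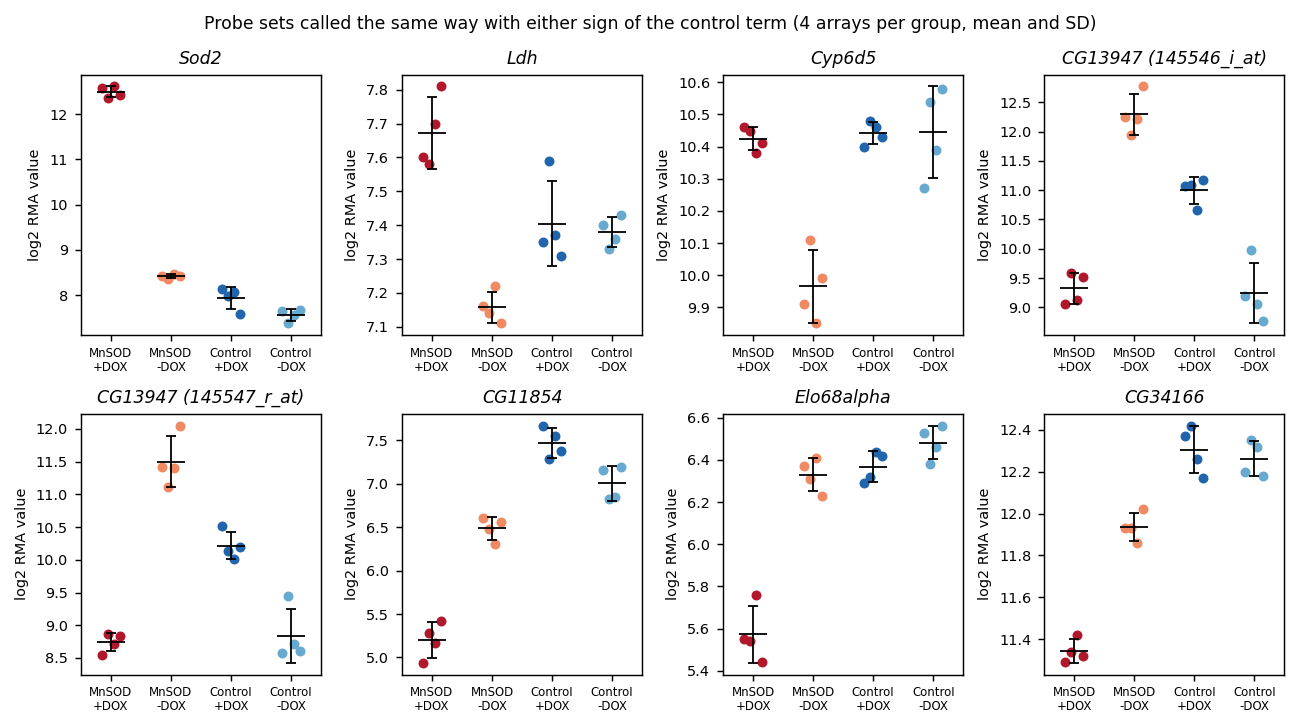
Log2 RMA values (vertical axes, a scale for each panel that does not start at 0) of the 8 probe sets called the same way with either sign of the control term, with a point for each of the 4 arrays of a group, a bar for the mean and whiskers for the SD. MnSOD +DOX and MnSOD -DOX arrays are separate in every panel, by 4.07 for Sod2 and by -2.97 for the first CG13947 probe set, while the control groups overlap for Sod2, Ldh, Cyp6d5, Elo68alpha and CG34166.

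The other MnSOD-carried probe sets were called with a single sign of the control term. Lst encodes limostatin, a hormone that holds back the release of insulin-like peptides. It had 8.38, 8.28, 8.37 and 8.47 in MnSOD +DOX arrays, against 7.24, 8.07, 7.77 and 7.31 in MnSOD -DOX arrays, which were both lower and more scattered. Control +DOX arrays had 8.41 to 8.67 and control -DOX arrays 8.43 to 8.78. The interaction was 0.88 (standard error 0.191, adjusted p = 0.00355) as labelled and 0.67 (adjusted p = 0.0144) turned. The labelled call was lost without MnSOD -DOX replicate 4 (adjusted p = 0.01), with the spike-in signal in the fit (adjusted p = 0.0314) and with control +DOX replicates 1 to 3 left out (adjusted p = 0.0442), and the turned interaction passed without control +DOX replicate 4 or MnSOD -DOX replicate 2 (adjusted p down to 0.0051).

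Tps1, Sirup and Sumo were among the MnSOD-carried rises as labelled. Tps1, which makes trehalose, the blood sugar of insects, had 11.53, 11.52, 11.6 and 11.62 in MnSOD +DOX arrays and 11.21, 11.24, 11.12 and 11.1 in MnSOD -DOX arrays. Its interaction was 0.60 (standard error 0.108, adjusted p = 0.000628) as labelled and 0.20 (adjusted p = 0.157) turned. Sirup, an assembly factor of succinate dehydrogenase, had an interaction of 0.68 (standard error 0.154, adjusted p = 0.00478) as labelled and 0.41 (adjusted p = 0.0484) turned. Sumo, the small ubiquitin-like modifier, had 0.62 (standard error 0.123, adjusted p = 0.00176) as labelled and 0.30 (adjusted p = 0.0729) turned. In control flies the changes, none of them called, were -0.20 for Tps1, -0.14 for Sirup and -0.16 for Sumo, and the labelled call of Sirup was lost without control -DOX replicate 3, control +DOX replicate 2, MnSOD -DOX replicate 1 or 4 or MnSOD +DOX replicate 3 (adjusted p up to 0.0143). The labelled calls of Sumo (adjusted p = 0.0237 and 0.0848) and Sirup (0.0162 and 0.0141) were also lost with the spike-in signal in the fit and with control +DOX replicates 1 to 3 left out.

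Tsf1, AcCoAS, FASN1 and yellow-e were among the MnSOD-carried falls as labelled. Tsf1, transferrin, the iron carrier of the hemolymph, had 11.53, 11.33, 11.48 and 11.37 in MnSOD +DOX arrays, against 12.12, 12.0, 11.98 and 11.98 in MnSOD -DOX arrays, with no overlap. Its interaction was -0.79 (standard error 0.109, adjusted p = 3.09e-05) as labelled and -0.40 (adjusted p = 0.0118) turned, and the turned value passed without control +DOX replicate 2 or 4 (adjusted p down to 0.00546). AcCoAS, which makes acetyl-CoA from acetate, had -0.61 (standard error 0.132, adjusted p = 0.00355) as labelled, a call lost without MnSOD +DOX replicate 3 (adjusted p = 0.0107), and -0.40 (adjusted p = 0.0302) turned, which passed without control +DOX replicate 4 (adjusted p = 0.00466). FASN1, fatty acid synthase, had -0.57 (standard error 0.143, adjusted p = 0.0095) as labelled, a call kept only without control +DOX replicate 3, MnSOD -DOX replicate 2 or MnSOD +DOX replicate 2, and -0.32 (adjusted p = 0.0928) turned, and its change in the MnSOD line alone was not called (-0.45, adjusted p = 0.0223). The yellow family gene yellow-e had -0.72 (standard error 0.113, adjusted p = 0.000153) as labelled and -0.26 (adjusted p = 0.0828) turned. With control +DOX replicates 1 to 3 left out, the labelled calls of FASN1 (adjusted p = 0.0299) and yellow-e (adjusted p = 0.0206) were lost, and that of FASN1 was lost with the spike-in signal in the fit as well (adjusted p = 0.0174).

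Sod2, Ldh, Cyp6d5, Elo68alpha, CG11854 and CG34166 were MnSOD-carried with either sign, and other genes entered the class with the control term turned. Hsp60C, a mitochondrial chaperonin gene of the Hsp60 family, had 7.98, 8.1, 7.87 and 8.07 in MnSOD +DOX arrays, against 7.44, 7.31, 7.48 and 7.71 in MnSOD -DOX arrays. Its interaction was 0.76 (standard error 0.148, adjusted p = 0.00234) turned and 0.27 (adjusted p = 0.19) as labelled, and the turned call was lost with the spike-in signal in the fit (adjusted p = 0.392) and with control +DOX replicates 1 to 3 left out (adjusted p = 0.323). Ebp, an ejaculatory bulb protein gene, had 0.55 (adjusted p = 0.00513) turned and 0.31 (adjusted p = 0.0877) as labelled. Amy-d, an amylase gene whose near-identical copy may share its probes, had -0.48 (adjusted p = 0.00791) turned and -0.40 (adjusted p = 0.0273) as labelled. For all 3 the change in the MnSOD line and the labelled change in control flies had the same sign, so that adding the control term enlarged the interaction. The MnSOD change of Ebp alone was not called (0.43, adjusted p = 0.011). The turned calls of Ebp and Amy-d were also lost with the spike-in signal in the fit, and single omissions are not given for them.

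ATPCL, whd, Lsd-1, Mtp, Jabba and Pepck1 had opposite changes in the lines as labelled, and they stand for no list or tested group. ATPCL, ATP citrate lyase, which supplies acetyl-CoA for fat synthesis, had 9.71, 9.68, 9.61 and 9.64 in MnSOD +DOX arrays, against 10.41, 10.07, 10.22 and 10.46 in MnSOD -DOX arrays. It had 10.31, 10.29, 10.26 and 10.19 in control +DOX arrays, against 9.88, 9.73, 9.68 and 9.78 in control -DOX arrays. The groups of either line did not overlap, and the changes were -0.63 in the MnSOD line and 0.49 in control flies. The interaction was -1.12 (standard error 0.111, adjusted p = 2.11e-07) as labelled and -0.13 (adjusted p = 0.367) turned. ATPCL, whd, Jabba and Mtp were chosen after their values were seen, as were Sirup, Sumo and AcCoAS.

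The gene whd encodes carnitine palmitoyltransferase, which brings long-chain fatty acids into mitochondria. It went the other way, with 8.92, 8.93, 8.8 and 8.89 in MnSOD +DOX arrays, against 8.07, 8.3, 8.33 and 8.01 in MnSOD -DOX arrays. Control +DOX arrays had 7.75, 8.07, 8.04 and 8.55, and control -DOX arrays had 8.55, 8.81, 8.89 and 8.77. The interaction was 1.36 (standard error 0.164, adjusted p = 4.18e-06) as labelled and 0.05 (adjusted p = 0.824) turned. Control +DOX replicate 4 was the highest of its group and equalled the lowest control -DOX array to 2 decimals, and without the other 3 control +DOX arrays the labelled interaction was 0.92 (adjusted p = 0.00187).

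Of the other genes of opposite changes, Lsd-1, a perilipin of the lipid droplet surface, had an interaction of -1.50 (standard error 0.238, adjusted p = 0.000171) as labelled and -0.33 (adjusted p = 0.288) turned. Mtp, which loads lipid onto lipoproteins, had -0.76 (standard error 0.115, adjusted p = 9.34e-05) as labelled and -0.05 (adjusted p = 0.785) turned. Jabba, a lipid droplet protein that holds histones, had 1.27 (standard error 0.145, adjusted p = 1.75e-06) as labelled and -0.26 (adjusted p = 0.171) turned. Pepck1, an enzyme of glucose synthesis, had 11.04 to 11.39 in MnSOD +DOX arrays, against 10.61 to 10.77 in MnSOD -DOX arrays, and its interaction was 0.96 (standard error 0.127, adjusted p = 1.61e-05) as labelled and 0.15 (adjusted p = 0.369) turned. With the control labels exchanged the lines would thus share the direction of each of these genes, and none of the 6 was called in the turned interaction. With control +DOX replicates 1 to 3 left out, the labelled calls of Mtp (adjusted p = 0.0277) and Lsd-1 (adjusted p = 0.0781) were lost.

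Jon74E, a serine protease of the gut, had 11.2, 11.32, 11.39 and 11.16 in MnSOD +DOX arrays, against 10.57, 10.71, 10.44 and 10.51 in MnSOD -DOX arrays. It had 10.31, 10.2, 10.41 and 10.55 in control +DOX arrays and 11.24, 10.96, 11.14 and 11.21 in control -DOX arrays, so that MnSOD +DOX and control -DOX arrays held the high values. The interaction was 1.48 (standard error 0.129, adjusted p = 2.57e-08) as labelled and -0.06 (adjusted p = 0.729) turned. Obp56a, an odorant binding protein gene, had 6.98, 6.87, 6.66 and 6.64 in MnSOD +DOX arrays and 8.15, 8.09, 7.72 and 7.98 in MnSOD -DOX arrays, with an interaction of -2.84 (standard error 0.232, adjusted p = 8.69e-09) as labelled and 0.45 (adjusted p = 0.143) turned. Both genes kept the labelled call without control +DOX replicates 1 to 3 together, at 1.30 for Jon74E and -2.20 for Obp56a, and the turned interaction of Obp56a passed without control +DOX replicate 4 (adjusted p = 0.00773).

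PGRP-SB1, a peptidoglycan recognition protein gene, was called with either sign but in opposite directions. It had 9.68, 8.66, 8.78 and 8.94 in MnSOD +DOX arrays, against 10.89, 10.85, 10.97 and 10.84 in MnSOD -DOX arrays. It had 11.74, 11.66, 11.68 and 11.51 in control +DOX arrays, against 8.85, 8.52, 8.44 and 8.66 in control -DOX arrays. The control separation of 3.03 exceeded that of -1.88 in the MnSOD line, and the interaction was -4.91 (standard error 0.21, adjusted p = 1.69e-13) as labelled and 1.16 (standard error 0.21, adjusted p = 0.00183, permutation p = 0.426) turned. The turned call was lost with the spike-in signal in the fit (adjusted p = 0.253) and with control +DOX replicates 1 to 3 left out (adjusted p = 0.295). Its direction in the interaction thus reversed with the naming of the control groups.

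**Figure D4:**
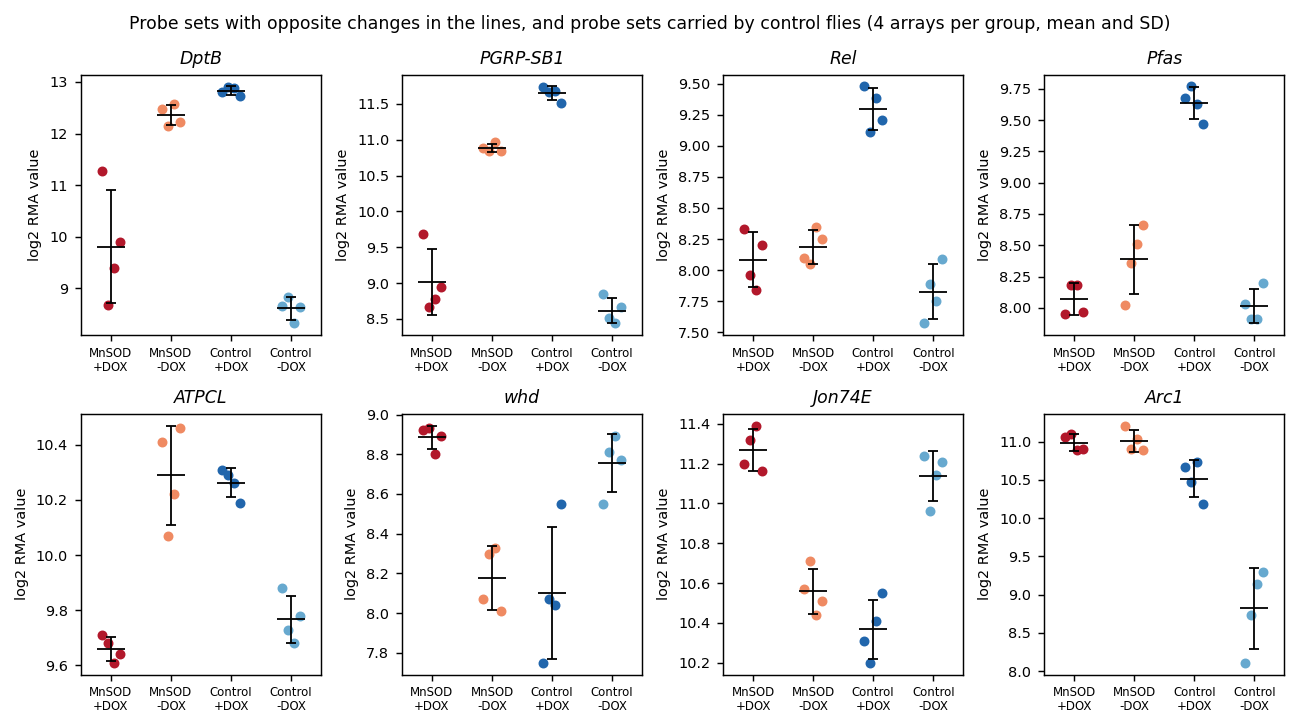
Log2 RMA values (vertical axes, a scale for each panel that does not start at 0) of 8 probe sets in the 4 groups, with a point per array, a bar for the mean and whiskers for the SD. DptB, PGRP-SB1, ATPCL, whd and Jon74E change in opposite directions in the lines as labelled, while Rel, Pfas and Arc1 differ by 1.48, 1.63 and 1.69 between the control groups and by -0.11, -0.32 and -0.02 between the MnSOD groups.

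A larger set of 274 probe sets (1.96%) was called in opposite directions with the 2 signs, 95 higher as labelled and lower turned and 179 the reverse. Of these, 270 were control-carried, and the MnSOD term was itself called for 10. Rel, the NF-kappa-B factor of the Imd immune pathway, is an example. It had 8.33, 7.96, 7.84 and 8.2 in MnSOD +DOX arrays and 8.1, 8.05, 8.35 and 8.25 in MnSOD -DOX arrays, which overlapped. It had 9.48, 9.11, 9.39 and 9.21 in control +DOX arrays, against 7.57, 7.89, 7.75 and 8.09 in control -DOX arrays. The interaction was -1.58 (standard error 0.185, adjusted p = 2.69e-06) as labelled and 1.37 (standard error 0.185, adjusted p = 0.000266) turned. The turned call was lost with the spike-in signal in the fit (adjusted p = 0.0597) and with control +DOX replicates 1 to 3 left out (adjusted p = 0.062).

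Most calls of the single terms in the purine and folate lists were also in control flies. Pfas, which acts in de novo purine synthesis, had 7.95, 8.18, 8.18 and 7.97 in MnSOD +DOX arrays and 8.02, 8.36, 8.51 and 8.66 in MnSOD -DOX arrays. It had 9.68, 9.77, 9.63 and 9.47 in control +DOX arrays, against 8.03, 7.91, 7.91 and 8.2 in control -DOX arrays, so that only control +DOX arrays stood apart. The interaction was -1.94 (standard error 0.177, adjusted p = 5.71e-08) as labelled and 1.31 (standard error 0.177, adjusted p = 0.000266) turned. Of 8 purine synthesis genes, 5 fell and 0 rose as labelled, with a median of -1.08, and 4 rose and 0 fell turned, with a median of 0.68. None of the 8 was called in the MnSOD line, where the median change was -0.19, and 6 were called higher in control flies, where it was 0.89.

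Of 9 folate one-carbon enzymes, 6 fell as labelled, with a median of -0.76, and 4 rose turned, with a median of 0.53. Of those printed here, pug was control-carried by size, while Gnmt and Nmdmc were mixed. The gene pug, a trifunctional folate enzyme, had -1.44 (standard error 0.137, adjusted p = 1.03e-07) as labelled and 0.74 (standard error 0.137, adjusted p = 0.00191) turned, with -0.35 in the MnSOD line and 1.09 in control flies. Gnmt, glycine N-methyltransferase, was the only folate list member called in the MnSOD line. It had 9.75, 9.6, 9.57 and 9.68 in MnSOD +DOX arrays, against 10.61, 10.44, 10.44 and 10.55 in MnSOD -DOX arrays, and its interaction was -2.10 (standard error 0.198, adjusted p = 9.78e-08) as labelled and 0.37 (adjusted p = 0.152) turned. Nmdmc, a mitochondrial folate dehydrogenase, had the reverse pattern of calls: 8.67 to 8.84 in MnSOD +DOX arrays, against 7.91 to 8.35 in MnSOD -DOX arrays, and an interaction of -0.55 (adjusted p = 0.12) as labelled and 1.82 (standard error 0.248, adjusted p = 0.000279) turned. The spike-in signal was low on control +DOX replicates 1 to 3, while replicate 4, where it was not, had 9.47 for Pfas, above all control -DOX arrays. That is a single array, with an array weight of 0.2511, and the part of the technical difference in the purine and folate values was not tested. With replicates 1 to 3 left out Pfas had -1.78 (adjusted p = 0.000151) as labelled and 1.14 (adjusted p = 0.124) turned, and pug had -1.35 (adjusted p = 8.3e-05) and 0.65 (adjusted p = 0.289). The turned value of Nmdmc was then 1.35 (adjusted p = 0.124), and it was 1.35 (adjusted p = 0.184) with the spike-in signal in the fit.

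Arc1, a neuronal gene whose protein forms capsids that carry RNA, had 11.06, 11.1, 10.89 and 10.91 in MnSOD +DOX arrays and 11.21, 10.9, 11.04 and 10.89 in MnSOD -DOX arrays. It had 10.67, 10.47, 10.73 and 10.19 in control +DOX arrays, against 8.11, 8.73, 9.14 and 9.3 in control -DOX arrays. The control -DOX arrays alone were low, 2.19 below the MnSOD -DOX arrays. The 3′ excess of these control -DOX arrays was 3.35, 2.3, 2.01 and 1.96 in the same order, and its part in the Arc1 values was not tested. The interaction was -1.71 (standard error 0.299, adjusted p = 0.000487) as labelled and 1.68 (standard error 0.299, adjusted p = 0.00178) turned. Both calls were lost with the spike-in signal in the fit, at -1.3 (adjusted p = 0.0223) as labelled and 1.09 (adjusted p = 0.311) turned. Leaving out control +DOX replicates 1 to 3 ended both calls (adjusted p = 0.1 as labelled and 0.314 turned).

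Some control-carried genes were called with the turned sign alone. Ir76b, a co-receptor of ionotropic chemoreceptors, had 4.96, 4.99, 5.06 and 4.99 in MnSOD +DOX arrays and 5.09, 5.12, 5.1 and 5.28 in MnSOD -DOX arrays. It had 4.44, 4.66, 4.62 and 4.99 in control +DOX arrays, against 5.18, 5.19, 5.57 and 5.33 in control -DOX arrays. Control +DOX replicate 4, whose spike-in value is like that of the other groups, was the highest of its group. Its array weight of 0.2511 was the lowest of its group. The interaction was -0.79 (standard error 0.138, adjusted p = 0.00165) turned and 0.49 (adjusted p = 0.019) as labelled, and the turned call was lost without replicates 1 to 3 of control +DOX together (-0.48, adjusted p = 0.329). The labelled interaction passed without control +DOX replicate 4 (adjusted p = 0.00108). Vha100-1, a vacuolar proton pump subunit, had 0.87 (standard error 0.196, adjusted p = 0.00484) turned and -0.64 (adjusted p = 0.0291) as labelled. Without control +DOX replicates 1 to 3 the turned value was 0.45 (adjusted p = 0.539). The turned value no longer passed without control -DOX replicate 2, control +DOX replicate 1 or 3, MnSOD -DOX replicate 2 or MnSOD +DOX replicate 1 or 2 (adjusted p up to 0.0141), and its labelled interaction passed without control +DOX replicate 4 (adjusted p = 0.00296).

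GstE1, a glutathione S-transferase gene, was higher in the MnSOD line than in control flies with and without DOX. It had 11.13, 10.88, 10.94 and 10.8 in MnSOD +DOX arrays and 10.52, 10.38, 10.61 and 10.31 in MnSOD -DOX arrays, against 9.13, 8.98, 9.25 and 8.43 in control +DOX arrays and 8.91, 8.42, 8.19 and 8.36 in control -DOX arrays. The MnSOD line was 1.99 higher with DOX and 1.98 higher without. The changes were 0.48 in each line, and the interaction was 0.01 (standard error 0.217, adjusted p = 0.988) as labelled and 0.96 (standard error 0.217, adjusted p = 0.00484) turned. The turned call was lost without control -DOX replicate 2 or 3, control +DOX replicate 1, 2 or 3, MnSOD -DOX replicate 2 or 4 or MnSOD +DOX replicate 1 (adjusted p up to 0.0142). With the spike-in signal in the fit the control change was 0.01 and the turned interaction 0.41 (adjusted p = 0.563), and with control +DOX replicates 1 to 3 left out they were -0.04 and 0.45 (adjusted p = 0.567).

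The purine and folate lists above, and the lists of antimicrobial peptides, peptidoglycan recognition proteins and Toll and Imd signalling, had only falls among their calls as labelled and mostly rises turned. Over all probe sets 2.22% rose and 3.78% fell as labelled, and 4.68% rose and 4.58% fell turned, which the list counts are to be read against. The lists name genes through the array annotation, with the probe set of highest mean for each gene, and their medians stand beside those of all probe sets, which were 0.07 as labelled, -0.04 turned, -0.00121 in the MnSOD line and -0.054 in control flies. Of 9 antimicrobial peptide genes, 6 fell as labelled, with a median of -2.72, while 2 rose and 1 fell turned, the median being 0.70. In the MnSOD line 4 fell, and in control flies 6 were higher and 1 lower. Of 9 peptidoglycan recognition genes, 4 fell as labelled and 3 rose turned, and of 24 Toll and Imd signalling genes, 5 fell as labelled and 7 rose turned. None of these 24 was called in the MnSOD line, against 11 higher and 1 lower in control flies, whereas the peptide list had calls in both lines. Other immune lists differed: of 10 immune-induced small peptides 2 fell as labelled and 1 rose and 1 fell turned, with a labelled median of 0.05, and of 7 JAK-STAT genes 0 were called as labelled and 1 rose turned. The summed level of the antimicrobial peptides, on the log2 scale, was 12.74 to 13.62 in MnSOD +DOX arrays and 14.32 to 14.55 in MnSOD -DOX arrays, and 14.59 to 14.76 in control +DOX arrays and 13.03 to 13.22 in control -DOX arrays.

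Gut genes went the other way. Of 24 midgut genes, mainly trypsins and lysozymes with some amylase and maltase genes, 8 rose and 1 fell as labelled, with a median of 0.32, and 0 rose and 2 fell turned, with a median of -0.18. The 14 Jonah proteases, a family of gut serine proteases, gave 4 that rose as labelled and 1 that fell turned, and 7 that were lower in control flies. betaTry, a trypsin gene, had 12.02, 12.18, 12.15 and 12.05 in MnSOD +DOX arrays, against 11.71, 11.76, 11.66 and 11.94 in MnSOD -DOX arrays, and 10.16, 10.42, 10.32 and 10.33 in control +DOX arrays, against 11.77, 11.17, 10.68 and 11.03 in control -DOX arrays. Its interaction was 1.19 (standard error 0.194, adjusted p = 0.00024) as labelled and -0.52 (adjusted p = 0.0481) turned. The labelled call was lost with control +DOX replicates 1 to 3 left out (adjusted p = 0.027), and the turned value passed without control -DOX replicate 3 (adjusted p = 0.00992). The summed level of the midgut list, on the log2 scale, was 14.75 to 14.96 in MnSOD +DOX arrays, 14.55 to 14.71 in MnSOD -DOX arrays, 14.6 to 14.71 in control +DOX arrays and 14.93 to 15.22 in control -DOX arrays. In whole flies fewer cells of a tissue and less RNA per cell cannot be told apart.

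Of 17 genes of glycolysis and related sugar metabolism, Ldh not counted, 2 rose as labelled, Tps1 and Pepck1, which were also the 2 called in the MnSOD line. The 3 that rose turned were the control-carried fbp, Gk1 and Pgi, with interactions of 0.50, 0.65 and 0.53. Of 25 complex I genes, 0 were called as labelled and 2 rose turned, with a median of 0.14 with either sign. Of 37 genes of complexes II to V, 3 rose as labelled and 2 rose turned, with medians of 0.22 and 0.15, and none was called in the MnSOD line, where the median was 0.19. Of 81 cytochrome P450 genes, 4 rose and 6 fell as labelled and 6 rose and 2 fell turned, and Cyp6d5 was the only 1 called in the MnSOD line. Of 35 glutathione S-transferase genes, 1 rose and 1 fell as labelled and 5 rose turned, and none was called in the MnSOD line.

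In lists of protein turnover and of chemoreceptors the turned sign called more members, as it did over all probe sets (9.26% against 6.0% as labelled). Of 40 proteasome genes, 2 rose as labelled and 5 rose turned, and of 25 vacuolar ATPase genes, 2 fell as labelled and 4 rose turned. Of 53 odorant receptors, 0 were called as labelled and 4 fell turned, and of 71 gustatory and ionotropic receptors, 0 and 6. In control flies 16 and 22 of these receptors were lower as labelled, with medians of -0.21 and -0.22. Over all probe sets 14.1% were lower in control flies. In the MnSOD line no receptor was called. Of 14 yolk and chorion genes of females, 5 were lower in control flies, with a median of -0.28, so such falls were not particular to receptors. Of 24 testis genes, 5 rose as labelled and 3 rose turned. The summed level of the testis list was 13.65 to 13.81 in MnSOD +DOX arrays, 13.33 to 13.6 in MnSOD -DOX arrays, 13.67 to 13.96 in control +DOX arrays and 13.99 to 14.22 in control -DOX arrays. The summed level of 14 yolk and chorion genes of females was 10.22 to 10.37 in MnSOD +DOX arrays, 10.28 to 10.32 in MnSOD -DOX arrays, 9.87 to 10.22 in control +DOX arrays and 10.2 to 10.37 in control -DOX arrays.

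**Figure D5:**
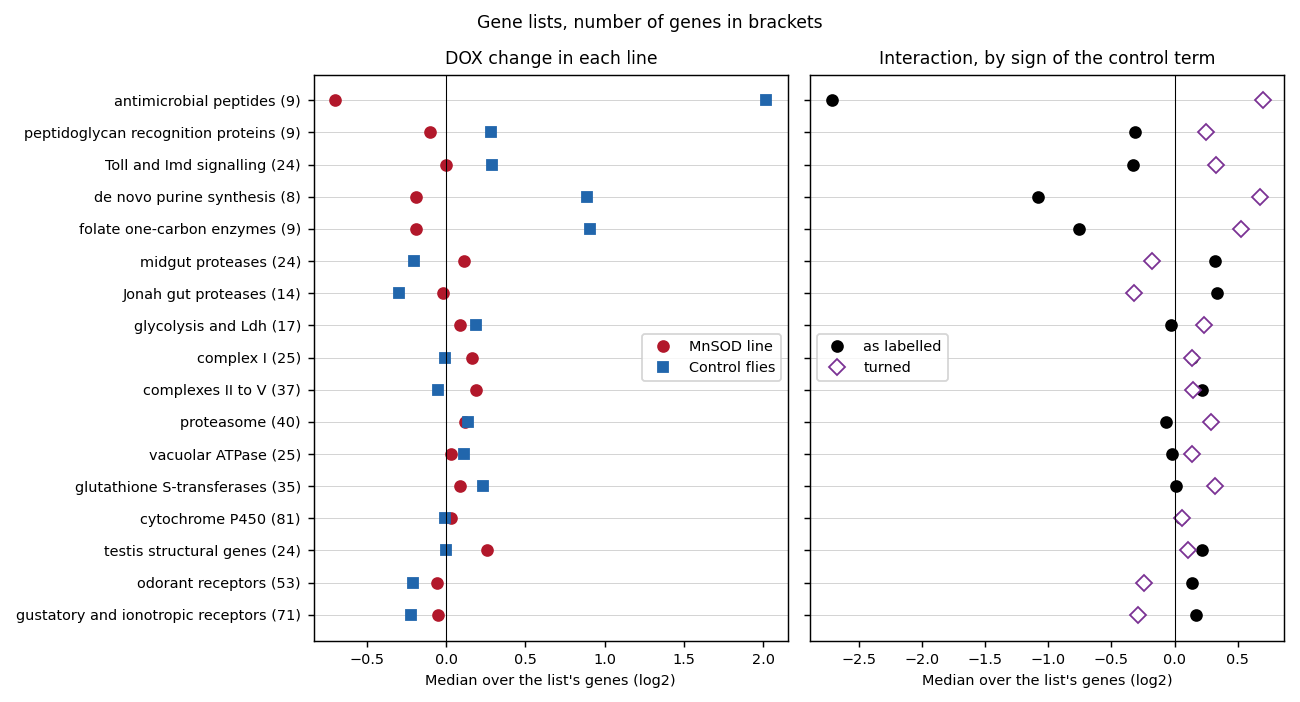
Median change over the genes of 17 lists (horizontal axes, log2), with the number of genes in brackets: on the left the change with DOX in the MnSOD line (circles) and in control flies as labelled (squares), on the right the interaction with the control term as labelled (circles) and turned (diamonds). The antimicrobial peptides have medians of -2.72 as labelled and 0.70 turned, and the medians of complex I coincide at 0.14.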

How the data were processed

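The authors normalized 20 DrosGenome1 arrays by RMA in affy (version not given in the sources used here) and deposited log2 values in 1 table of 20 columns, none of which was left out. In R 4.3.3 with limma 3.58.1, all 20 arrays entered a linear model of 5 group means with empirical Bayes moderation, and p-values were adjusted by Benjamini-Hochberg over 14010 probe sets in each contrast. Thresholds follow the study's methods. Arrays have no read depth; the number of 4 arrays per group limits the precision. Data were simulated on 14010 probe sets with changes in the MnSOD +DOX arrays alone, the same spread in all groups, no control change and no array effects. In the labelled interaction 70 of 200 probe sets changed by 0.5 and 190 of 200 changed by 1 were recovered. Of these 0 were called in the wrong direction, and 3 of 13610 unchanged ones were called. Turned, 78 and 190 were recovered. The control arrays here differ from that setting, so these shares do not describe control-carried calls.

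By the array annotation 12443 probe sets carry 1 gene name, 327 several and 1240 none, of which 106 were named from the study's additional data. No genome coordinates are given, since the sources used here name no build for this table. The genes named are Sod2, the probe sets called the same way with either sign, the 10 largest rises and falls of each interaction, the 5 largest of the MnSOD-carried and control-carried classes and up to 4 called members of each list; the text prints part of them, chosen after their values were seen. Members, lists and tests were chosen with earlier results of these data known, and several lists hold genes that the study names as changed. Alternatives covered fits on fewer arrays, a replicate block, normalization, leaving out the dimmest 40% of probe sets, the variance model, array weights, thresholds, the AFFX probe sets, a spike-in covariate, control +DOX replicates 1 to 3 together and each array left out. The replicate numbers did not pair the samples: of 24 pairs of same-numbered arrays, 3 deviated together with a correlation over 0.1. Tables were made in Python 3.11.15 with pandas 2.3.3 and numpy 2.4.6 and figures with matplotlib 3.10.9.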

Additional observations from a re-analysis of the deposited data

Results flagged for a closer look

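The DOX response differed between the lines by the test of the interaction itself for 841 probe sets with the control term as labelled and for 1298 with it turned. For the probe sets called the same way with either sign, the labelled and turned interactions were 3.69 and 4.45 for Sod2, 0.48 and 0.54 for Ldh, and 0.46 and 0.46 for Cyp6d5. They were -4.73 and -1.22 for CG13947 by its _i_at probe set and -4.14 and -1.38 by its _r_at probe set, -1.76 and -0.82 for CG11854, -0.64 and -0.87 for Elo68alpha, and -0.63 and -0.55 for CG34166.

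Among the printed probe sets, 8 of 190 groups of 4 arrays held an array far from the other 3, where chance gives about 1 in 20. In MnSOD +DOX arrays of day 83, the _r_at probe set of CG13947 had 9.13 against 8.55 for the nearest other array, and Gnmt had 9.08 against 9.71. In MnSOD -DOX arrays, Tsf1 had 12.12 against 12.0, Ir76b had 5.28 against 5.12 and Sumo had 8.37 against 8.21. In control -DOX arrays, the _r_at probe set of CG13947 had 9.44 against 8.71, Lst had 8.43 against 8.76 and FASN1 had 10.96 against 11.22.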

How the results depend on the processing

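The counts moved most with the control +DOX arrays, array weights and thresholds, and by less than 1.5 times with a mean-variance trend or robust moderation. In each group below the labelled interaction gives rises and falls, then the turned interaction, the calls in the MnSOD line and in control flies, the calls in the same and in opposite directions with either sign, and the MnSOD-carried and control-carried calls as labelled and then turned. The spike-in covariate gave 95 and 180, 1 and 0, 121 and 101, 1 and 0, 13 and 108, and 1 and 0. Without control +DOX replicates 1 to 3 together, the remaining array being assumed to vary like the other groups, the values were 37 and 104, 3 and 0, 101 and 64, 1 and 2, 7 and 46, and 1 and 2. Array weights gave 1806 and 1597, 2231 and 2717, 515 and 5412, 24 and 2202, 102 and 2837, and 116 and 4116. An adjusted p below 0.05 gave 1256 and 1202, 1798 and 2105, 193 and 4875, 25 and 1344, 86 and 1912, and 100 and 3133.

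A fold of at least 1.5 gave 153 and 423 as labelled, 463 and 284 turned, 54 and 732 in the lines, 5 and 182 with either sign, 20 and 389 as labelled by class and 12 and 634 turned. Centring on array medians gave 199 and 740 as labelled and 999 and 493 turned, so that rises made up 21.2% and 67% of calls, against 37% and 50.5% without it. Without the lowest 40% of probe sets the turned interaction gave 577 and 373, rises being 60.7%, and control flies 2416. Array weights made rises 53.1% as labelled. With only its own 8 arrays the MnSOD line gave 347 and control flies 1330. A class ratio of 3 left 16 MnSOD-carried as labelled, and the turned MnSOD-carried class had 14. Replicate numbers did not pair the arrays: correlations of same-numbered arrays ran from -0.39 to 0.361 over 24 pairs, with 5 matching best their own number. The replicate block gave 271 and 461 as labelled, 498 and 523 turned, 87 and 3540 in the lines, 7 and 210 with either sign, and 15 MnSOD-carried turned.

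Leaving out 1 array gave 163 to 1095 rises and 350 to 1090 falls as labelled, 187 to 1487 rises and 164 to 1778 falls turned, 64 to 110 calls in the MnSOD line and 2018 to 5048 in control flies. Calls in the same direction with either sign ran from 4 to 11 and opposite ones from 91 to 1392. The classes ran from 16 to 30 MnSOD-carried and 309 to 1870 control-carried as labelled, and from 7 to 34 and 294 to 2880 turned. Each highest value was without control +DOX replicate 4. The lowest were without control +DOX replicate 3 (labelled rises, opposite calls, labelled control-carried) or replicate 1 (control flies), control -DOX replicate 3 or control +DOX replicate 3 (labelled MnSOD-carried), MnSOD +DOX replicate 3 (labelled falls) or 1 (the 4 turned counts) and MnSOD -DOX replicate 1 (the MnSOD line). The count of 4 in the same direction was shared by 8 omissions, control -DOX replicates 2 and 3, control +DOX replicates 1 and 3, and replicates 1 and 4 of either MnSOD group. Of 4328 values of printed genes under alternatives, 0 reversed a call. Leaving out 1 array, 181 lost a call and 14 gained a call, and under the other alternatives 124 lost and 38 gained a call. The causes were not tested.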
